A study of Mus musculus with 10 samples.

Results

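Proteins bound for the cell surface, the matrix or the bloodstream enter the endoplasmic reticulum (ER) and leave it in coated vesicles, and the genes of these steps are described here in arthritic mouse synovium with and without maslinic acid. A list of 37 genes was followed: the signal recognition particle (SRP) and its receptor, the Sec61 translocon with its associated proteins, the signal peptidase, and the COPII coat with its exit site factors. Srprb and Sec23a were selected on their measured difference between the treatment groups in these arrays, and the other members were added for their function. Each gene was read from the probe set with the highest mean over 10 arrays among those that name it alone, which gave 36 of the 37 members out of 18128 genes in all. The probe set of Sec61g also names other genes, so Sec61g is not reported. The question was whether the rest of the machinery moved with Srprb and Sec23a, and how far the answer depends on normalization.

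All mice were male DBA/1J, bought at 5 weeks and labelled 8 weeks old, on an AIN-93G diet with corn as its fat, and all had arthritis induced by collagen antibody (CAIA). For this a monoclonal antibody to type II collagen, here 1 mg into the peritoneum on day 8, and lipopolysaccharide, here 25 µg on day 11, inflame the joints, and tissue was taken on day 12. Vehicle mice (n = 5) received corn oil by mouth, and maslinic acid mice (n = 5) received this olive triterpene every day at 200 mg/kg in corn oil. The submitters chose these 5 mice of each group out of more, by a criterion that the labels do not give, and untreated mice were not analysed here, so both groups are arthritic. Each mouse gave 1 Affymetrix array of synovium from the left hind leg, cleaned of muscle and skin, and the number of arrays limits the precision.

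A ribosome that begins a secretory protein is caught by the SRP and docked at the SRP receptor, and the growing chain passes through the Sec61 channel while signal peptidase removes its signal sequence. Folded cargo is then gathered at ER exit sites, where the GTPase Sar1 recruits the inner coat Sec23/Sec24 and the outer cage Sec13/Sec31 to form COPII vesicles. Synovial fibroblasts use this route for procollagen and lubricin, and plasma cells use it for antibody. ER stress sensors can raise many of these genes together through DNA elements in their promoters.

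Promoters are shown for Srprb and Sec23a, which led to the list, and for Sec24d, which with Sec23a holds an element of the ER stress response. The sequences are from RefSeq (GRCm38.p6), 5′ to 3′ on the strand of the gene, each 100 bases that end just before the transcription start, and capitals mark the core of the unfolded protein response element (UPRE), TGACGTGG. Srprb lies at chr9:103202066-103202165 (minus strand), Sec23a at chr12:59012018-59012117 (minus strand) and Sec24d at chr3:123267396-123267495 (plus strand).
Srprb: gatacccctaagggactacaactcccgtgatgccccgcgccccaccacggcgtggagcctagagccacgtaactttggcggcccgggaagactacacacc
Sec23a: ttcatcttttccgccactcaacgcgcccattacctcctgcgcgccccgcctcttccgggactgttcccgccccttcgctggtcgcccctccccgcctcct
Sec24d: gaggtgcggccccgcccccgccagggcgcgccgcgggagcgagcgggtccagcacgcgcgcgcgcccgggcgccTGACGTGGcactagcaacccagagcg
In Sec23a the same element starts at base 7 of the transcript, and the 30 bases around it (chr12:59011993-59012022, minus strand) follow.
Sec23a around its start: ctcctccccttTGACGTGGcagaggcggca

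In Sec24d the element starts 26 bases before the transcript. The window searched ran from 250 bases before to 50 bases after the start, on both strands, and was found for 29 of the 36 members and for 27025 genes in all. A gene was counted once where any of its windows held the motif. The UPRE core was present in 2 of these 29 members (6.9%) and in 0.714% of all genes with a window. It was also present in 3 of 11 COPI coat genes (27.3%), 2 of 23 cargo receptors and carriers (8.7%) and 1 of 16 ER chaperones (6.25%). The longer ER stress element (ERSE), CCAAT and CCACG separated by 9 bases of any kind, was present in 0 of 29 members and in 0.137% of all genes with a window. It was found in 8 of 16 ER chaperone and disulfide isomerase genes (50.0%), among them Hspa5, Hsp90b1 and Calr. ERSE-II (ATTGGNCCACG) was present in 0 of 29 members and in 0.0444% of all genes with a window. The last 5 letters of the UPRE core read CCACG on the other strand, so the motifs share letters. A match is a description of these letters and not a binding site.

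Values are deposited scores with 6 decimals. They look like log2 intensities (table median 6.74, upper quartile 7.86), but differences between arrays are very small and their scale is unknown, so no fold change is given. Differences are counted in steps, 1 step being 1e-06 score units, above the lowest array of that probe set. Hedges' g divides the difference, maslinic acid minus vehicle, by the SD within groups, and is given with its 95% interval in parentheses. Of the 36 members, 34 had a mean score above the upper quartile of the table. Their ranges over the 10 arrays ran from 3 to 3693 steps (median 137, against 28 over all genes), with 6 members under 20 steps. Lubricin, Prg4, marks the synovial lining and had a mean score of 11.55, but Acta1 and Myh4 of skeletal muscle were also high at 13.26 and 12.60, so muscle RNA was present. A pair of vehicle arrays, replicates 3 and 5, differed from the rest, with array weights of 0.244 and 0.198 against 0.696 to 3.85. Many results that rest on them, but not all, are given with and without them. In bulk tissue, fewer cells of a type and less RNA per cell cannot be told apart.

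Most of the machinery did not show the pattern of Srprb and Sec23a, in which the lowest maslinic acid array exceeded the highest vehicle array: of the other 34 members only Sec24a did. Among these 34, 21 had a higher and 13 a lower mean with maslinic acid (61.8% higher, against 48.1% of the 18038 genes with more than 1 value), and their median g was 0.34 against -0.00 over all genes. Steps of the pathway went different ways: COPII members mostly had higher means and all 5 signal peptidase members had lower ones. No member passed an adjusted p of 0.05 in limma with Benjamini-Hochberg adjustment, and 0.0% of all genes did. At an unadjusted p under 0.05 in limma there were 2 of 34 members (5.88%), against 8.76% of all genes. The count depends on vehicle replicate 4, without which it was 11 of 34 (32.4%, 4 higher and 7 lower) against 11.9% of all genes. Of the 2, Sec24a was higher, as were 4.3% of all genes at that p, and Sec61b was lower, as were 4.46%. The groups did not overlap in 2 of 34 members (5.88%), Sec24a and Srp19, against 1.39% of all genes. Without vehicle replicates 3 and 5 the count of higher members was 16 of 34, with a median g of -0.24 against -0.05 over all genes. With arrays centred on their medians it was 10 of 34, with a median g of -0.34 against -0.39 over all genes.

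**Figure D1:**
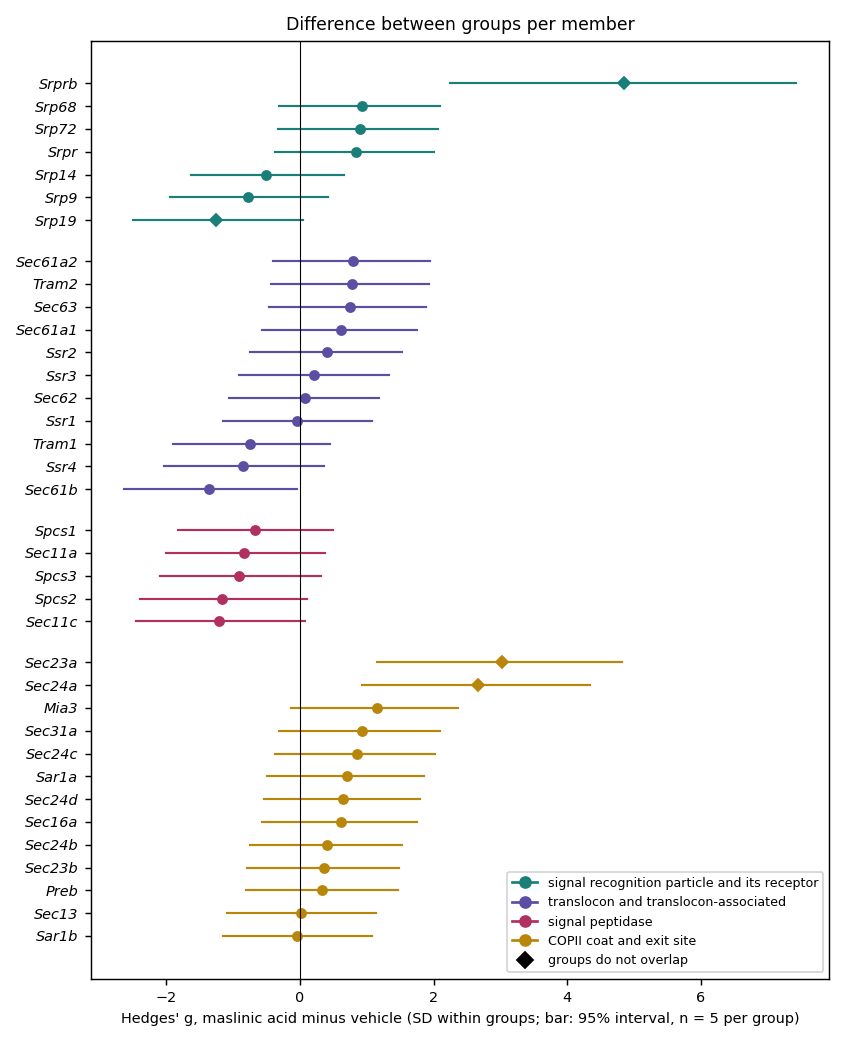
Hedges' g of the 36 members, maslinic acid minus vehicle, in SDs within groups on the deposited scores; bars are 95% intervals (n = 5 per group), colours mark the step of the pathway and diamonds the members whose groups do not overlap. Srprb (4.85), Sec23a (3.02) and Sec24a (2.67) lie to the right of the others and all 5 signal peptidase genes lie left of 0; under arrays centred on their medians Srprb is at -0.31 and Sec23a at -0.21.

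The first step is recognition of the ribosome and docking at the ER. Srprb encodes the membrane-anchored beta subunit of the SRP receptor. Its scores in vehicle replicates 1 to 5 were 1, 4, 1, 3 and 0 steps, and in maslinic acid replicates 1 to 5 they were 9, 10, 9, 8 and 11 steps. All maslinic acid arrays were above all vehicle arrays, and the whole range was 11 steps with 8 distinct values. The means were 1.8 ± 1.64 and 9.4 ± 1.14 steps (SD, n = 5 each), which gives g = 4.85 (2.25 to 7.42); Srprb was selected for this difference, so it carries no test.

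A pair of other probe sets also name Srprb alone. The first read 79, 90, 0, 83 and 39 steps in vehicle and 105, 43, 95, 86 and 99 steps in maslinic acid arrays (g = 0.77). The next read 165, 212, 0, 215 and 25 steps in vehicle and 166, 140, 125, 214 and 123 steps in maslinic acid arrays (g = 0.35). On both the groups overlapped, and vehicle replicates 3 and 5 were the lowest arrays, replicate 3 below replicate 5. The difference of Srprb was thus seen on 1 of its 3 probe sets, the one with the smallest range, and the mean of the 3 gave g = 0.56.

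The partner subunit and the particle itself did not share the pattern of Srprb. Srpr, the alpha subunit that binds the beta subunit, read 60, 14, 0, 46 and 4 steps in vehicle and 59, 39, 31, 54 and 37 steps in maslinic acid arrays. The vehicle arrays spread over the whole range and the maslinic acid arrays lay inside it (g = 0.84, -0.37 to 2.01; -0.20 with arrays centred on their medians), and the other probe set of Srpr was at -0.99. Srp68 and Srp72, which form a dimer on the SRP RNA, were at 0.92 (-0.31 to 2.10) and 0.89 (-0.33 to 2.06), and Srp72 moved over 6 steps only. For Srpr, Srp68 and Srp72 vehicle replicates 3 and 5 were the lowest arrays, and without them g was 0.21, 0.22 and 0.22.

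Srp19, which binds the SRP RNA so that the particle can assemble, had the opposite direction. Its scores were 151, 140, 279, 132 and 516 steps in vehicle and 107, 124, 0, 61 and 86 steps in maslinic acid arrays. Every maslinic acid array was below every vehicle array, and vehicle replicates 3 and 5 were the highest arrays. The means were 244 ± 164 and 75.6 ± 48.4 steps (g = -1.26, -2.5 to 0.05; limma adjusted p = 0.558 with Benjamini-Hochberg adjustment). Without vehicle replicates 3 and 5 g was -1.43, and centred on array medians it was -1.12. Srp9 and Srp14, the dimer that slows the ribosome, were at -0.78 (-1.94 to 0.42) and -0.51 (-1.64 to 0.65), and without vehicle replicates 3 and 5 at 0.06 and 0.11. Of the 6 members other than Srprb, 3 had higher and 3 lower means (median g = 0.16); the higher ones numbered 1 with arrays centred on their medians and 0 of the 4 that kept a difference after quantile normalization.

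**Figure D2:**
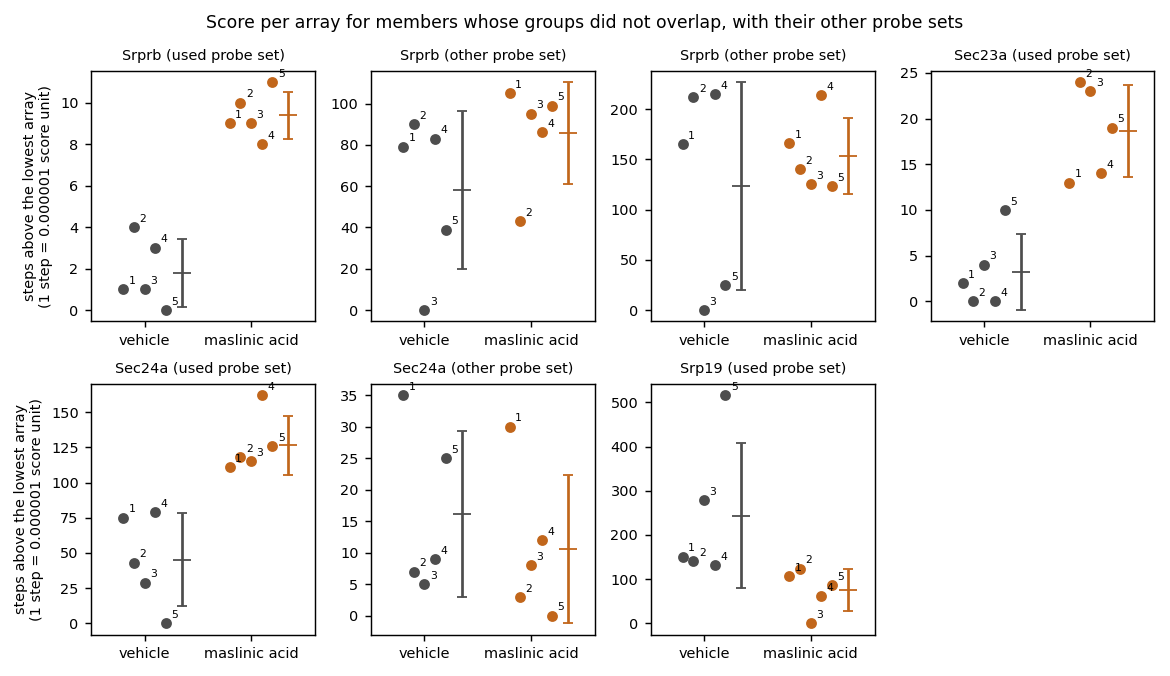
Score of each array in steps of 1e-06 above the lowest array, for the 4 members whose groups did not overlap and their other probe sets; numbers are replicates and the bars mean ± SD (n = 5). The groups are apart on the probe set used for Srprb, Sec23a, Sec24a and Srp19 and overlap on all 3 other probe sets of Srprb and Sec24a.

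Members of the translocon went both ways, with 7 of 11 higher and a median g of 0.21; 4 of 11 were higher without vehicle replicates 3 and 5 (median g = -0.29), 2 of 11 with arrays centred on their medians, and 3 of the 7 that kept a difference after quantile normalization. The channel subunit Sec61a1 was at 0.61 (-0.57 to 1.75) on the probe set used, had higher means on all 6 of its probe sets, and was at -0.34 without vehicle replicates 3 and 5. Sec61a2, a second form of the channel, was at 0.79 (-0.41 to 1.95). Sec61b is the small tail-anchored subunit of the channel. Its scores were 72, 131, 170, 25 and 177 steps in vehicle and 48, 60, 58, 0 and 36 steps in maslinic acid arrays. The highest arrays were vehicle replicates 3 and 5 and vehicle replicate 4 lay among the maslinic acid arrays, so the groups overlapped. The means were 115 ± 65.3 and 40.4 ± 24.5 steps (g = -1.37, -2.63 to -0.04; limma adjusted p = 0.532 with Benjamini-Hochberg adjustment), with -0.85 without vehicle replicates 3 and 5 and -2.36 without vehicle replicate 4.

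Sec63, the membrane partner that recruits the chaperone BiP to the channel, was at 0.74 (-0.46 to 1.89), and its partner Sec62 at 0.07 (-1.06 to 1.18). The 5 probe sets of Sec62 ran from -1.38 to 0.74. The translocon-associated protein (TRAP) complex assists the entry of some signal sequences. Its members stood at -0.04 (Ssr1), 0.40 (Ssr2), 0.21 (Ssr3) and -0.86 (Ssr4), each with an interval across 0, and Ssr3 moved over 3 steps in all. Without vehicle replicates 3 and 5 they were at -0.89, -0.56, -0.29 and -0.18. Tram1, a membrane protein next to the entering chain, was at -0.75 (-1.90 to 0.45). Its relative Tram2, which has been tied to the making of type I collagen, read 1251, 910, 58, 916 and 0 steps in vehicle and 1264, 543, 1824, 808 and 945 steps in maslinic acid arrays. For Tram2 vehicle replicates 3 and 5 were the low arrays and the others overlapped; g was 0.77 (-0.43 to 1.93), 0.11 without those replicates and 0.78 with arrays centred on their medians.

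All 5 signal peptidase members had lower means with maslinic acid, from -1.22 to -0.68 (median g = -0.91), and their 95% intervals all included 0. Under each centring 5 of 5 were lower too, but there so were most genes (15.0%, 10.6% and 8.27% of all genes had higher means with the 3 centrings), so this is no sign of stability; after quantile normalization only Spcs3 and Sec11c had more than 1 value, and Spcs3 was at 0.57. Sec11c, a catalytic subunit, read 249, 337, 647, 0 and 524 steps in vehicle and 96, 192, 130, 54 and 58 steps in maslinic acid arrays. Vehicle replicate 4 was the lowest of all 10 arrays and the other 4 vehicle arrays were above all maslinic acid arrays (g = -1.22, -2.45 to 0.07; limma adjusted p = 0.563 with Benjamini-Hochberg adjustment), with -2.36 without vehicle replicate 4. Without vehicle replicates 3 and 5 Sec11c was at -0.70. Sec11a, the other catalytic subunit, was at -0.84 (-2.01 to 0.37) over a range of 13 steps.

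Spcs2, a subunit that helps the enzyme meet its substrate, read 15, 34, 9, 14 and 33 steps in vehicle and 9, 14, 17, 2 and 0 steps in maslinic acid arrays. Vehicle replicates 2 and 5 were high and the other arrays overlapped (g = -1.17, -2.39 to 0.11; limma adjusted p = 0.574 with Benjamini-Hochberg adjustment). The accessory subunits Spcs1 and Spcs3 were at -0.68 (-1.83 to 0.50) and -0.91 (-2.09 to 0.32). Averaged over the 5 genes as z-scores, vehicle arrays ran from -0.61 to 1.79 and maslinic acid arrays from -1.01 to 0.25. Vehicle replicates 5 and 2 were the highest arrays, and vehicle replicate 4 lay among the maslinic acid arrays. Without vehicle replicates 3 and 5 the median g was -0.70 with 4 of 5 lower, and Spcs1 was at 0.04.

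In the COPII coat 12 of 13 members were higher (median g = 0.64), and 11 of 12 without Sec23a (median g = 0.62). For 9 of the 13 members vehicle replicates 3 and 5 were the lowest arrays, and without them 6 of the 12 were higher with a median g of -0.08. With arrays centred on their medians 7 of the 12 were higher, where 15.0% of all genes were, and after quantile normalization 2 of the 12 were, where 32.6% of all genes were. A range under 100 steps was seen in 3 of the 12 and in 12289 of the 18038 genes, so these shares do not compare genes of like range.

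**Figure D3:**
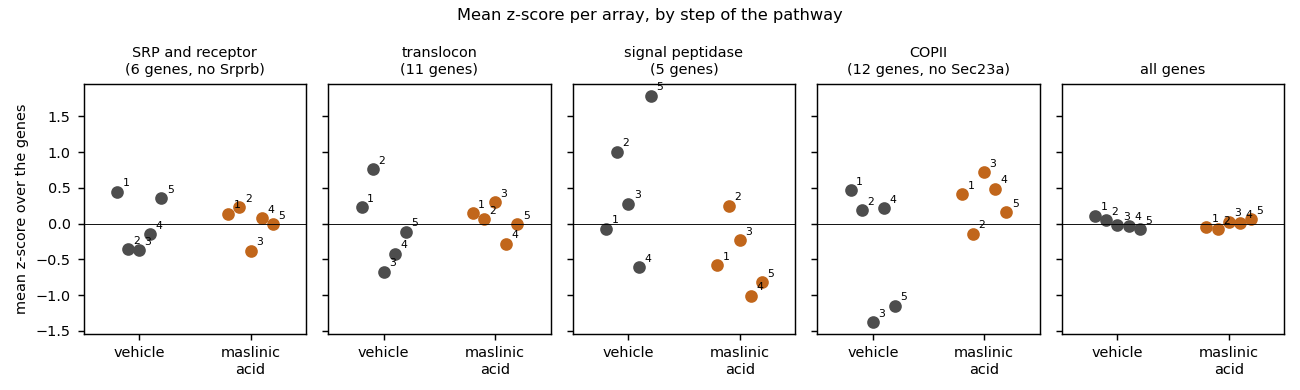
Mean z-score per array over the members of each step, without Srprb and Sec23a, and over all genes; each point is 1 array, numbered by replicate. Vehicle replicates 3 and 5 lie at -1.38 and -1.15 for COPII while the other 8 arrays lie between -0.14 and 0.72, and vehicle replicate 5 is the highest array for signal peptidase at 1.79.

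Coat assembly starts with Preb, the exchange factor that loads Sar1 with GTP, and with Sec16a, the scaffold of the exit site. Preb was at 0.33 (-0.81 to 1.46) and Sec16a at 0.61 (-0.57 to 1.75). Without vehicle replicates 3 and 5 they were at -0.80 and -0.31. The GTPases Sar1a and Sar1b were at 0.70 (-0.49 to 1.85) and -0.04 (-1.16 to 1.08), and the other probe set of Sar1a was at -0.91. After quantile normalization Sar1a was at -2.34, on 3 distinct values over a range of 332 steps (52 before). It was the only member at an unadjusted p under 0.05 in limma there. That is 1 of the 25 without Srprb and Sec23a (4.0%), against 6.49% of all genes. Sar1b had the widest range of the members, 3693 steps, with vehicle replicates 2 and 5 as its lowest and highest arrays.

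Sec23a encodes the inner coat subunit that activates the GTPase of Sar1 and is known for its role in procollagen export. Its scores were 2, 0, 4, 0 and 10 steps in vehicle and 13, 24, 23, 14 and 19 steps in maslinic acid arrays. The groups were apart by 3 steps within a range of 24, with vehicle replicate 5 nearest to the maslinic acid arrays. The means were 3.2 ± 4.15 and 18.6 ± 5.03 steps (SD, n = 5 each; g = 3.02, 1.15 to 4.82), and Sec23a was also selected for this difference, so it carries no test. It has 1 probe set, and g was 3.75 without vehicle replicates 3 and 5. Sec23b, its close relative in the coat, read 571, 537, 0, 349 and 68 steps in vehicle and 454, 269, 449, 395 and 339 steps in maslinic acid arrays. In Sec23b vehicle replicates 3 and 5 were the lowest and vehicle replicates 1 and 2 the highest arrays (g = 0.36, -0.79 to 1.48; -0.97 without replicates 3 and 5).

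Sec24 proteins bind cargo and pair with Sec23, and Sec24a differed most between the groups among the members listed for their function. Its scores were 75, 43, 29, 79 and 0 steps in vehicle and 111, 118, 115, 162 and 126 steps in maslinic acid arrays. All maslinic acid arrays were above all vehicle arrays, a pattern with higher values that 0.649% of all genes also had. The means were 45.2 ± 32.9 and 126 ± 20.6 steps (g = 2.67, 0.93 to 4.34; limma adjusted p = 0.418 with Benjamini-Hochberg adjustment), so the difference did not pass. It was 2.60 without vehicle replicates 3 and 5, 0.54 with arrays centred on their medians and -0.47 after quantile normalization. The other probe set of Sec24a read 35, 7, 5, 9 and 25 steps in vehicle and 30, 3, 8, 12 and 0 steps in maslinic acid arrays, and there the groups overlapped (g = -0.40, -1.53 to 0.74).

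The other Sec24 forms did not separate the groups. Sec24b was at 0.40 (-0.75 to 1.52), Sec24c at 0.85 (-0.37 to 2.02) and Sec24d, whose promoter holds the UPRE core as shown above, at 0.64 (-0.54 to 1.79). Without vehicle replicates 3 and 5 Sec24b was at -0.42 and Sec24c at 0.15. Sec24d read 445, 545, 39, 318 and 0 steps in vehicle and 419, 271, 513, 407 and 385 steps in maslinic acid arrays. Vehicle replicates 3 and 5 were its low arrays, vehicle replicate 2 was its highest, and g was -0.33 without replicates 3 and 5.

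In the outer cage, Sec31a read 873, 916, 214, 1017 and 0 steps in vehicle and 1040, 572, 1358, 1049 and 956 steps in maslinic acid arrays. Again vehicle replicates 3 and 5 were the low arrays and the remaining ones overlapped (g = 0.92, -0.31 to 2.10; 0.22 without them). Sec13, its partner, which is also part of the nuclear pore, read 157, 162, 0, 122 and 128 steps in vehicle and 121, 128, 106, 118 and 100 steps in maslinic acid arrays. Vehicle replicate 3 alone was low (g = 0.02, -1.10 to 1.13), and without vehicle replicates 3 and 5 g was -1.80. Mia3, the exit site receptor TANGO1 that loads procollagen, read 98, 72, 14, 135 and 0 steps in vehicle and 115, 88, 141, 144 and 107 steps in maslinic acid arrays. Its groups overlapped (g = 1.15, -0.13 to 2.37; limma adjusted p = 0.579 with Benjamini-Hochberg adjustment), and g was 0.57 without vehicle replicates 3 and 5.

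**Figure D4:**
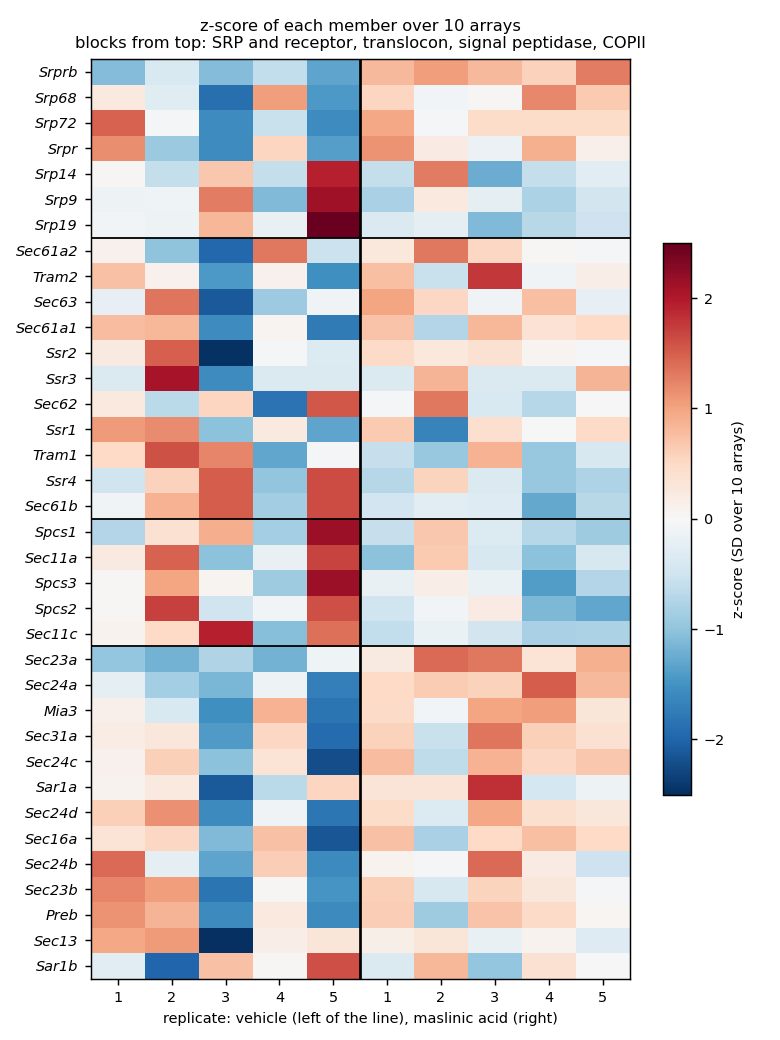
z-score of each member (rows, grouped by step) on each of the 10 arrays (columns; vehicle left, maslinic acid right), red above and blue below the mean of that gene over the arrays. Vehicle columns 3 and 5 hold the lowest values of 9 of 13 COPII genes, and column 5 is high for several signal peptidase genes. For Srprb, on the probe set used, column 5 is lowest and columns 1 and 3 come next at the same score. For Sec23a column 5 is the highest vehicle array.

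The spread between mice was larger in the vehicle group for 35 of 36 members (97.2%), against 72.0% of all genes. Among genes with 10 distinct values it was larger there for 20 of 20 members (100.0%), against 81.7%. Vehicle replicates 3 and 5 together were the lowest arrays in 15 members and the highest in 6, which makes 21 of 36 (58.3%) against 20.4% of all genes. Members have wider ranges than most genes, and among genes with 10 distinct values the shares were 16 of 20 members (80.0%) against 34.3%. Neither Srprb nor Sec23a was among these 21 on the probe set used, where Srprb had vehicle replicate 3 level with replicate 1. On both other probe sets of Srprb, vehicle replicates 3 and 5 were the lowest arrays. Without the 2 arrays 13 of 36 members changed direction.

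The probe sets of a member often disagreed. Of 25 members with several, 15 had the same direction on all of them and 10 did not. Among the 44 probe sets not used, 0 had groups apart, against 4 of the 36 used, of which Srprb and Sec23a were selected for it. The groups were apart in 1.39% of all genes, so 0 of 44 is near that share and is no sign of disagreement.

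Offsets between arrays were of the same order as the members' own differences. Array medians ran over 272 steps (195, 205, 0, 236 and 171 in vehicle and 272, 161, 245, 180 and 121 in maslinic acid arrays), with vehicle replicate 3 lowest. That is more than the whole range of 24 of the 36 members, Srprb, Sec23a and Sec24a included, and centring subtracts these constants from each of them. Averaged by group, the medians were 34.4 steps higher in maslinic acid arrays, and 19 members differed by less than this between the groups and 17 by more, among them Tram2 (450 steps) and Sec31a (391 steps). Centred on array medians, Srprb was at -0.31, Sec23a at -0.21 and Sec24a at 0.54. There 0 of the other 34 members had groups apart, and 0 were at an unadjusted p under 0.05 in limma, against 2.06% of all genes. The 12 members with wider ranges kept their direction, among them Srp19 (-1.12), Tram2 (0.78), Sec31a (0.95) and Sec24c (0.76), and 13 of the 24 others changed it. Centred on array means, 7 of 34 were higher, with a median g of -1.02 against -1.03 over all genes. Centred on the median of probe sets with 10 distinct values, 5 of 34 were higher, with a median g of -0.77 against -0.82. For the 24 members whose range is smaller than the offsets, as for most genes, the centred values mainly carry the same subtracted constants, so these medians were bound to be alike. The share with a higher mean was 29.4% of the 34 members against 15.0% of all genes with median centring, 20.6% against 10.6% with mean centring and 14.7% against 8.27% with the third. Members had wider ranges than all genes (median 137 against 28 steps), so these shares do not compare genes of like range. No share among genes of like range was computed.

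Quantile normalization gives every array the same set of values and leaves a gene only its rank on each array. Of the 36 members, 9 received 1 value on all 10 arrays, among them Srp19 and Sec61b, and 25 shared a value on at least 5 arrays. Of the 27 members that kept a difference, 20 turned to the other direction, with Srprb at -0.56, Sec23a at -1.21 and Sec24a at -0.47. The range of Srprb went from 11 to 1420 steps on 4 distinct values. That of Sec23a went from 24 to 608 on 2, and that of Sec24a from 162 to 1180 on 3. Their g after quantile normalization thus rests on jumps between few values. Of the 25 without Srprb and Sec23a, 6 were higher, with a median g of -0.36 against -0.27 over all genes.

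**Figure D5:**
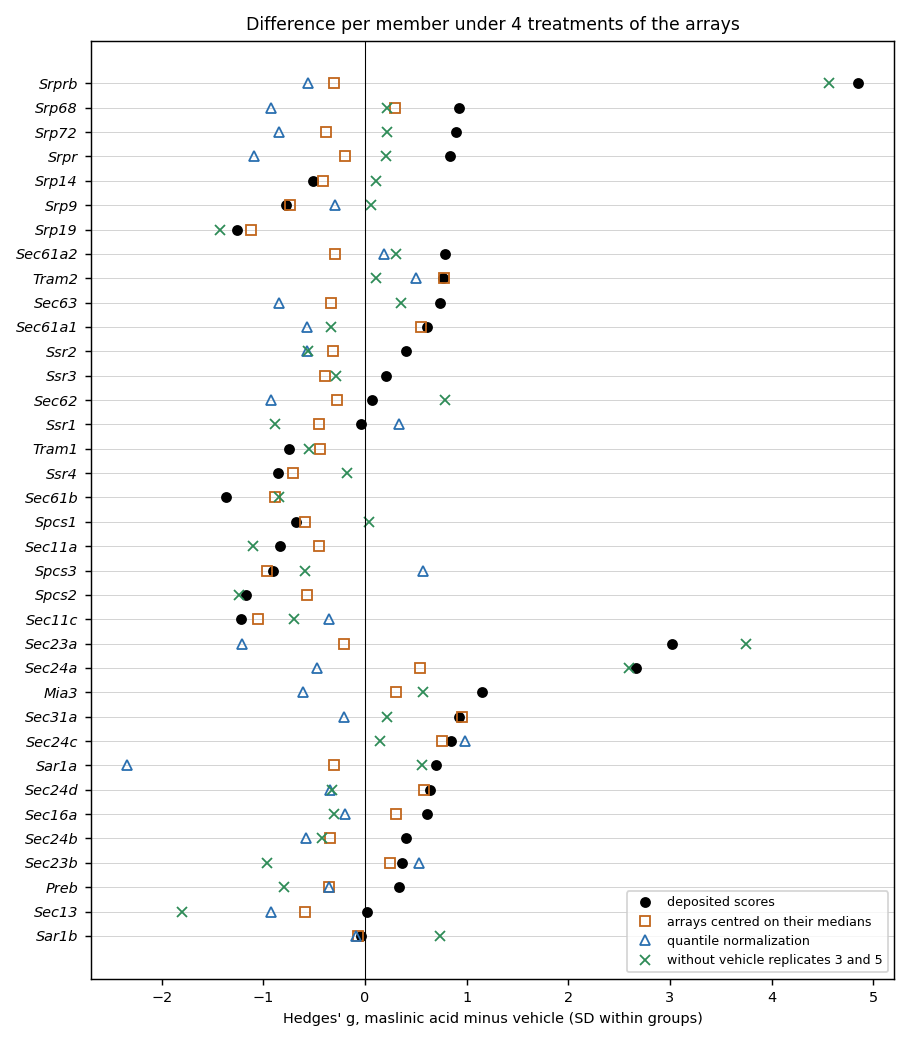
Hedges' g of each member on the deposited scores, with arrays centred on their medians, after quantile normalization and without vehicle replicates 3 and 5; members with 1 value on all arrays after quantile normalization have no triangle. Srprb goes from 4.85 to -0.31 with centring and to -0.56 with quantile normalization but stays at 4.57 without the 2 vehicle arrays.

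Neighbouring parts of the secretory route gave counts of the same kind, with 0 genes past an adjusted p of 0.05 in limma in each list. Of 12 oligosaccharyltransferase genes, which attach glycans to entering chains, 7 were higher and 5 lower (median g = 0.16). Among them Tmem258, a small subunit, was at -2.99 (-4.77 to -1.13; limma adjusted p = 0.418 with Benjamini-Hochberg adjustment) on a difference of 6.4 steps below vehicle, and at -0.46 with arrays centred on their medians. Of 16 genes for insertion of tail-anchored proteins and the ER membrane complex, 10 were higher and 6 lower (median g = 0.39). Of 26 cargo receptors and ER to Golgi carriers, 19 were higher and 6 lower (0.31), with the retrieval receptor Kdelr1 at 1.24 (-0.06 to 2.48) and the cargo receptor Tmed7 at -1.15 (-2.37 to 0.13). The COPI coat, which carries proteins back to the ER, had 11 of 12 members higher (0.45), of which Copz2 at 1.64 (0.24 to 2.98) reached an unadjusted p under 0.05. With arrays centred on their medians these 4 lists had median g of -0.35, -0.38, -0.36 and -0.35. Without vehicle replicates 3 and 5 the higher members were 2 of 12 (median g = -0.42), 7 of 16 (-0.03), 8 of 26 (-0.23) and 5 of 12 (-0.06).

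ER stress genes did not give one picture. Of 18 ER chaperones and disulfide isomerases, 13 were higher and 5 lower (median g = 0.35), and without vehicle replicates 3 and 5 the median was -0.98. Hspa5, the chaperone BiP, was at 0.67 (-0.51 to 1.82), and at -0.27 without those replicates. Of 14 sensors and factors of the unfolded protein response, 11 were higher (0.93; 0.05 with arrays centred on their medians; 0.53 without vehicle replicates 3 and 5). Ddit3, the factor CHOP, was at 1.74 (0.31 to 3.11), with 0.99 centred on array medians and -1.24 after quantile normalization. The sensor Atf6 was at 1.46 (0.10 to 2.75), with -0.30 centred on array medians and 0.25 after quantile normalization. Both were at an unadjusted p under 0.05 in limma on the deposited scores. Xbp1, the factor that drives many secretory genes, was at -0.00 (-1.12 to 1.12), and at -1.29 without vehicle replicates 3 and 5.

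Procollagens and the enzymes that fold them, the cargo of this route in fibroblasts, were higher in 18 of 19 (median g = 0.96). Their median was 0.95 with arrays centred on their medians, 0.62 after quantile normalization and 0.58 without vehicle replicates 3 and 5. A range under 100 steps was seen in 2 of these 19 genes and in 15 of the 36 members. Col1a1 ranged over 29909 steps, against 272 for the array medians. Centring could thus change g little for most of these genes, so the like median is no sign of stability. The difference from the members was not tested. Plod2, a collagen lysyl hydroxylase, was at 1.81 (0.36 to 3.2), with 1.16 centred on array medians and -0.24 after quantile normalization. Sparc, a collagen-binding matrix protein, was at 1.35 (0.03 to 2.62), with 1.28 centred on array medians and 1.18 after quantile normalization. Both were at an unadjusted p under 0.05 in limma on the deposited scores. Col1a1, a chain of type I collagen, was at 0.95 (-0.29 to 2.13).

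Markers of the cells in the dissected tissue were read beside these results. Fibroblast markers had higher means in 8 of 8 (mean z-score -1.11 to 0.32 in vehicle and -0.30 to 1.36 in maslinic acid arrays), and osteoblast markers in 5 of 5 (-1.66 to 0.19 and 0.11 to 1.02). Plasma cell markers, which mark a cell rich in this machinery, were higher in 3 and lower in 3 of 7 (-0.50 to 0.60 and -0.49 to 0.59). The plasma cell genes of lowest p went opposite ways: Jchain was at -1.54 (-2.85 to -0.17) and Sdc1 at 1.08 (-0.18 to 2.29). With arrays centred on their medians they were at -1.53 and 1.05. Muscle markers were higher in 10 of 10 (-1.68 to 0.77 and -0.79 to 0.90), and with their score as a covariate 22 of 34 members were higher with a median g of 0.58. Neutrophil markers were higher in 1 of 6 (-0.07 to 0.83 and -0.68 to 0.05). Adipocyte markers were higher in 4 of 4 (median g = 1.13; -1.25 to 0.32 and -0.41 to 1.42), chondrocyte markers in 6 of 6 (0.53; -1.35 to 0.45 and -1.31 to 1.38), lining markers in 6 of 6 (0.18; -0.86 to 0.63 and -0.44 to 0.57) and macrophage markers in 5 of 6 (0.38; -0.77 to 0.39 and -0.46 to 0.77). With arrays centred on their medians 3 of the 6 lining markers were higher, and without vehicle replicates 3 and 5 so were 3 of the 6 lining and 2 of the 6 macrophage markers. Fibroblast markers were higher in 6 of 8 under each of these 2 settings, and osteoblast markers in 5 of 5. The part of any of these cells other than muscle in the members' differences was not tested, and since a score has no true zero no marker can be called absent.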

How the data were processed

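Total RNA of 10 synovia was labelled from 100 ng and hybridised to Affymetrix 3′ arrays. Values per probe set are deposited scores whose scale could not be settled: the authors used R 3.2.1, per the submitters' processing notes, and the sources used here do not give how background, normalization and probe summary were handled. The design had assumed log2 values; scores went into the test unscaled. Of 39993 probe sets, 225 with 1 value on all arrays were left out of the fit and 39768 were fitted. The platform annotation named 1 gene for 34202, several for 931 and none for 4860; Entrez identifiers of 34028 were found in the RefSeq gene table, which updated 0 symbols.

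Maslinic acid was compared with vehicle over all 10 arrays with lmFit and eBayes of limma 3.58.1 (R 4.3.3), two-sided, without covariates, and Benjamini-Hochberg adjusted over all fitted probe sets (prior degrees of freedom 0.515). Where a sentence gives a share of all genes, it is over 18038 genes with more than 1 value, 1 probe set each. Labels call the arrays biological replicates. Genes named are all members, the 2 genes of lowest p in a related or marker list (mostly left to the counts), and Col1a1, Hspa5 and Xbp1; Hsp90b1 and Calr are named for their promoter only. Members and lists were chosen with earlier results of these data known. The scripts were tested on simulated data. Alternatives were quantile normalization, 3 centrings, filters on level and on distinct values, trended and robust eBayes, array weights, the replicate number as a block, a muscle covariate, other summaries of probe sets, the exact Wilcoxon test, each array left out, and vehicle replicates 3 and 5 left out together. Replicate numbers were taken from the sample titles. Python 3.11.15 with pandas 2.3.3, numpy 2.4.6, scipy 1.17.1 and matplotlib 3.10.9 made tables and figures.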

Additional observations from a re-analysis of the deposited data

Results flagged for a closer look

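In groups of 5 arrays, an array was singled out where its gap to the nearest other array, divided by the range of the group, exceeded Dixon's critical value of 0.71. Of 72 groups (36 members in both treatments) 4 met this, and chance gives about 1 in 20. Maslinic acid replicate 2 was the low array of its group for Sec16a, the exit site scaffold (0.842, a gap of 128 in a range of 152 steps), for the cargo adaptor Sec24c (0.768, 222 of 289 steps) and for the TRAP subunit Ssr1 (0.725, 29 of 40 steps). Vehicle replicate 3 was the low array for the cage subunit Sec13 (0.753, 122 of 162 steps).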

How the results depend on the processing

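Counts are of the 34 members other than Srprb and Sec23a, of which 21 had higher means, 2 an unadjusted p under 0.05 in limma and 2 groups apart. After quantile normalization these were 6 of 25, 1 (Sar1a, 4.0% against 6.49% of all genes) and 0. With arrays centred on their medians they were 10, 0 and 0, centred on their means 7, 6 and 10 (median g -1.02), and centred on the median of probe sets with 10 distinct values 5, 6 and 3 (median g -0.77). The shares at that p were 0.0% against 2.06% of all genes, 17.6% against 5.2%, and 17.6% against 4.07%. All 6 were lower with maslinic acid under both of the latter centrings. The centres subtracted there were on average 70.0 and 109 steps higher in maslinic acid arrays. Subtracting them lowers the difference of every gene, which weighs most where the range is small. These counts and directions thus partly follow from the subtracted constants, and the shares do not compare genes of like range. The share of all genes with groups apart was not counted after quantile normalization or centring. Over members with 10 distinct values, 11 of 20 were higher. With single arrays left out, 18 to 22 were higher, the median g was 0.07 to 0.59, the count at an unadjusted p under 0.05 was 1 to 11 and that of groups apart 2 to 4. The count at p was 11 without vehicle replicate 4 (32.4%, against 11.9% of all genes). It was 5 without vehicle replicate 1 (14.7% against 10.4%) and 4 without vehicle replicate 3 (11.8% against 7.28%). Without maslinic acid replicates 1, 4 or 5 it was 1, and without vehicle replicate 4 groups were apart in 4. For these last counts the share of all genes was not computed, so they are not read as a result about the members. The count past an adjusted p of 0.05 was 0 under every alternative run. The labels do not say whether the replicate numbers pair the mice. Same-numbered arrays had correlations from -0.38 to 0.322 over 6743 genes, and 2 of 5 matched their own number best, which cannot settle it. With the replicate block, 21 were higher, the median g was 0.28 and 3 were at an unadjusted p under 0.05 in limma. The share of all genes was not computed there either. With array weights 17 were higher, with a median g of -0.08. Rounding limits members whose range is a few steps, and no detection calls were used here.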
